A study of Mus musculus with 10 samples.

Results

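Cyclins, the cyclin-dependent kinases (CDKs) that they switch on, and the CDK inhibitors were measured by RNA-Seq in germ cells of 5 WT and 5 GRTH-KI mice aged 45 days. GRTH (Ddx25) is a testicular RNA helicase, and on both alleles the KI mice hold human GRTH bearing the mutation R242H in place of the mouse gene, while WT mice hold neither. Germ cells were released from the testes with enzymes, with no sorting described, so each library, made from 1 mouse, holds RNA of spermatogonia, spermatocytes and spermatids together. Members were chosen by gene symbol: those that begin Ccn and a lower-case letter (Ccnb1ip1 left out), Cdk with a number, or Cdkn with a digit. This gave 56 of the 15507 genes in the table, namely 28 cyclins, 18 CDKs and 10 inhibitors, and all 56 passed the filter on low counts. Ccndbp1, Cdkn2aip and Cdkn2aipnl entered by symbol alone, since they are named for binding a cyclin D or an inhibitor protein.

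A CDK is a kinase that works only with a partner subunit, and the pair of cyclin and kinase sets which substrate is phosphorylated and when. D-type and E-type cyclins with Cdk4, Cdk6 and Cdk2 act at entry into S phase, and A-type and B-type cyclins with Cdk2 and Cdk1 act in S phase and in the mitotic and meiotic divisions. A second branch, with cyclins C, H, K, L and T, acts on RNA polymerase II and splicing. In the testis, spermatogonia divide by mitosis, spermatocytes pass through both meiotic divisions, and spermatids no longer divide, yet some CDKs stay abundant in them. Cdk16, Cdk17 and Cdk18 form the PCTAIRE family, named for the residues of the helix with which a CDK holds its cyclin, and Cdk16 with cyclin Y is known to be needed for male fertility in mice.

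The codons of this helix are shown because Cdk16 and Cdk18, which share it with Cdk17, are 2 of the 4 members called, while Cdk17 is not called. They were read 5′ to 3′ on the coding strand of mm10 from GENCODE vM21 transcripts, and capitals mark bases that differ from Cdk16.
Cdk16: ccctgtactgctatccgggaa
Cdk17: ccctgtacAgctatAAgAgaa
Cdk18: ccctgCactgctatTcgAgaG
Cdk14: ccTtTCacAgcCatcAgggaa
Cdk1: cccAgtactgcAatTcgggaa
Cdk2: cccAgtactgcCatccgAgaG
The Cdk16 stretch lies in exon 6 at chrX:20694725-20694745, that of Cdk17 in exon 7 at chr10:93225029-93225049 and that of Cdk18 in exon 6 at chr1:132119101-132119121. Those of Cdk14, a PFTAIRE kinase, and of the PSTAIRE kinases Cdk1 and Cdk2 lie at chr5:5195279-5195299, chr10:69346116-69346136 and chr10:128703967-128703987. Of the 21 bases, Cdk17 and Cdk18 each differed from Cdk16 at 4, Cdk14 at 6, Cdk1 at 3 and Cdk2 at 4. The authors' counting shared out reads that fit several genes by an expectation-maximization model. Their reads were longer than such a stretch, and whether any were divided between these relatives was not tested.

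The values are the authors' normalized counts, which are read counts divided by a size factor for each library. Recovered reads on genes numbered 13323024 to 16422347 per WT library (median 15203687) and 12722086 to 15500582 per KI library (median 15182116). Libraries were compared as log2(normalized count + 1) by limma with Benjamini-Hochberg adjustment over 15389 genes, fold changes are KI against WT on that scale, and a call needed both an adjusted p under 0.05 and a change of 1.5-fold or more. In each genotype, libraries 1 to 3 and the pair of libraries 4 and 5, which the study's quality records set apart by read quality, lay on different sides of the second principal component (−9.51 to −2.82 against 6.44 to 11.7, 9.75% of the variance), so values within each set are also given for called members and for members that missed an adjusted p of 0.05 over all libraries but reached it in 1 set. Ddx25 had 5198 to 11101 normalized counts in WT and 146, 194, 161, 2.88 and 1.84 in KI libraries 1 to 5 (log2 fold change −7.84, SE 1.03, adjusted p = 5.63e-05). Reads were aligned to the mouse genome, so these counts need not measure RNA of the human gene that the KI mice hold. The log2 fold change of Ddx25 was −5.34 within libraries 1 to 3 and −11.59 within libraries 4 and 5, where KI had 3 and 2 reads and the size of the change depends on the added 1.

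Of the 56 members, 4 were called (7.14%), against 14.4% of all genes tested. Transcripts of the kinases Cdk16 and Cdk18 fell in KI germ cells, and those of the cyclins Ccnd2 and Ccno rose. The 2 called higher stand beside 6.13% of all genes called higher, and the 2 called lower beside 8.22% of all genes called lower. An adjusted p under 0.05 at any fold was reached by 11 members (19.6%), beside 22.9% of all genes. In 10 members (17.9%) no KI library overlapped a WT library, beside 17.7% of all genes, and KI was higher in 5 of them and lower in the other 5. The median log2 fold change was 0.055 over the members and 0.026 over all genes, and 37 members (66.1%) lay within 0.25 of 0 on the log2 scale, beside 55.4% of all genes. These shares of the members lie near or under those of all genes. Just inside the fold threshold lay Ccno (0.59), and just outside it lay Ccnf (0.58, adjusted p = 0.00204), which edgeR and DESeq2 on the recovered reads did call.

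**Figure D1:**
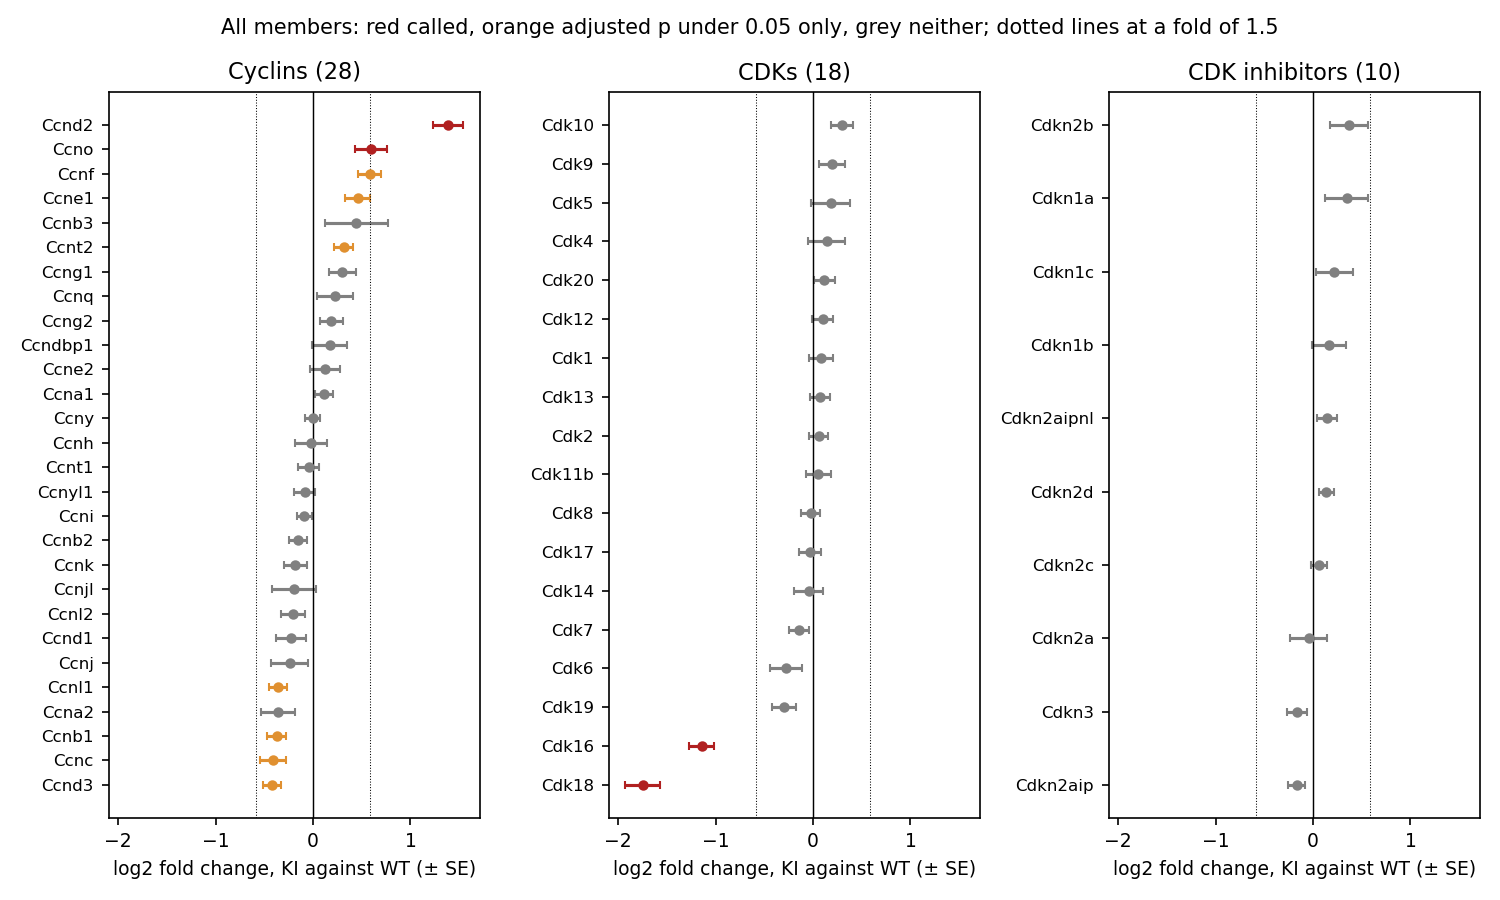
Log2 fold change (KI against WT, points, with SE as bars) of each of the 28 cyclins, 18 CDKs and 10 inhibitors, 5 libraries per genotype. The 4 called members (red) are Cdk18 at −1.75, Cdk16 at −1.14, Ccno at 0.59 and Ccnd2 at 1.39, and no inhibitor is called.

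Cdk16, the most abundant of the PCTAIRE kinases in these cells, had 2312, 2551, 2872, 1733 and 1991 normalized counts in WT libraries 1 to 5 and 1018, 1114, 1104, 909.7 and 977 in KI libraries 1 to 5. Every KI library lay under every WT library (log2 fold change −1.14, SE 0.12, adjusted p = 1.03e-05). Within libraries 1 to 3 the log2 fold change was −1.25, and within libraries 4 and 5 it was −0.98. The gene lies at chrX:20687954-20699879 on the plus strand (mm10). In GENCODE vM21 its exons overlapped no exon of another of the 15507 counted genes, and genes outside these were not searched. In RNA of mixed cells, fewer cells of a type and less RNA per cell cannot be told apart.

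Cdk18, the third member of the family, had 142, 158, 180.0, 96.3 and 136 normalized counts in WT and 37.2, 35.6, 39.1, 42.3 and 52.4 in KI. The highest KI library stayed under the lowest WT library, and the fall was the largest of any member (log2 fold change −1.75, SE 0.18, adjusted p = 5.11e-06). The value was −2.07 over libraries 1 to 3 and −1.27 over the other pair. Cdk18 lies at chr1:132113547-132139685 on the minus strand. Its lowest library had 38 reads, so its values are less precise than those of Cdk16, whose lowest had 946.

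Cdk17, whose helix codes for the same residues, had 445, 395, 413, 363 and 343 normalized counts in WT and 449.5, 384, 400.5, 349 and 336 in KI. The genotypes overlapped throughout, and Cdk17 was not called (log2 fold change −0.031, SE 0.11, adjusted p = 0.876). The exons of Cdk17 overlap those of Elk3 on the other strand, and no source used here says that counting took account of strand.

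Ccny and Ccnyl1, cyclins that activate Cdk16 and Cdk14, overlapped between genotypes and were not called over all 10 libraries. Ccny, cyclin Y, had 1298, 1346, 1299.6, 1327 and 1232 normalized counts in WT and 1279, 1251, 1282, 1281 and 1405 in KI (log2 fold change −0.0018, SE 0.076, adjusted p = 0.991). With library totals as the scaling, which raises the median of all genes to 0.25, Ccny stood at 0.23 (adjusted p = 0.025). Its relative Ccnyl1 gave −0.085 (SE 0.11) over all libraries, −0.24 within libraries 1 to 3 (adjusted p = 0.0359) and 0.15 within libraries 4 and 5. In libraries 1 to 3 every KI library of Ccnyl1 lay under every WT library. Over all libraries the PFTAIRE kinase Cdk14 gave −0.045 (SE 0.15). Per kilobase of exon, counting all annotated exon bases of a gene, genes can be set against each other only roughly. On this scale Cdk16 had a mean level of 523 normalized counts in WT and 234 in KI. Ccny had 213 and 213, and Ccnyl1 339 and 316. On the same per-kilobase scale the mean levels of Cdk17 were 64.2 and 62.9, and those of Cdk18 29.9 and 8.68. By these means Cdk16 stood above both cyclins in WT and between them in KI.

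**Figure D2:**
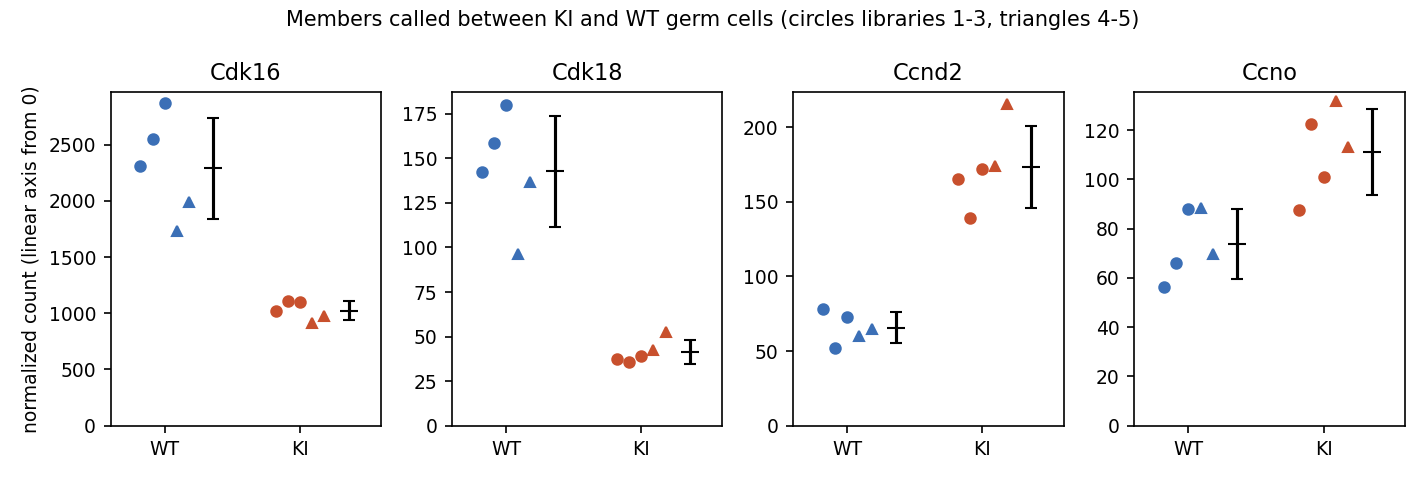
Normalized counts (linear axes from 0) of the 4 called members in each library, circles for libraries 1 to 3 and triangles for libraries 4 and 5, with mean and SD beside them (n = 5 per genotype). Cdk16 and Cdk18 are lower and Ccnd2 higher in every KI library than in any WT library, while Ccno overlaps.

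The balance within the PCTAIRE family was also measured as ratios within a library, which do not depend on how libraries are scaled. Cdk16 to Cdk17 stood at 5.20, 6.45, 6.95, 4.77 and 5.81 in WT libraries and at 2.26, 2.90, 2.76, 2.61 and 2.91 in KI libraries. The log2 ratio was −1.11 (SE 0.12) in KI against WT, with no overlap (exact two-sided permutation test, p = 0.00794, adjusted p = 0.0317 over 20 pairs). Cdk16 to Cdk18 went the other way, from 16.2, 16.1, 16.0, 18.0 and 14.6 in WT to 27.4, 31.3, 28.2, 21.5 and 18.6 in KI. The KI log2 ratio was higher by 0.60 (SE 0.14, exact permutation p = 0.00794, adjusted p = 0.0317), so Cdk18 fell by more than Cdk16. A p of 0.00794 is the smallest that this test can give with 5 against 5 libraries.

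The 250 bases before the start sites of Cdk16 and Cdk18 are shown because both transcripts fell, one on chromosome X and one on chromosome 1. They come from RefSeq (GRCm38.p6, the mm10 assembly), run 5′ to 3′ toward the start, and carry in capitals the matches to CCAAT (the CCAAT box), TGACG (the core of the cAMP response element) and TTTGAA (the cell cycle homology region), as written or reversed and complemented for a match on the other strand.
Cdk16: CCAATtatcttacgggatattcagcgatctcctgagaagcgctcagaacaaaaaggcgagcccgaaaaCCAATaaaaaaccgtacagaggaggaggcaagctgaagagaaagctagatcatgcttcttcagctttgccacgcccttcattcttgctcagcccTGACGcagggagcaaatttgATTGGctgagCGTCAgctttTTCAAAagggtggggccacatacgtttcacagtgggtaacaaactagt
Cdk18: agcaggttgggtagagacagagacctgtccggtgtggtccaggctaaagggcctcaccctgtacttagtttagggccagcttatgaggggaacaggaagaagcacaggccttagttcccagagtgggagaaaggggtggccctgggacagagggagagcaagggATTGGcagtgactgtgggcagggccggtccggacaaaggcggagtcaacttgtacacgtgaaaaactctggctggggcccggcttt
The Cdk16 window is chrX:20687704-20687953 and the Cdk18 window chr1:132139686-132139935. Cdk16 held 3 CCAAT, 2 TGACG and 1 TTTGAA, and a second start site of Cdk16 in the table, with the window chrX:20688176-20688425, held none of these. Cdk18 held 1 CCAAT on the other strand, 86 bases before the start. Over 32851 such windows, 33.8% held CCAAT on either strand, 17.8% TGACG and 16.0% TTTGAA. The whole cAMP response element TGACGTCA, which contains TGACG, was in 1.55% of windows and the E2F site TTTCGCGC in 0.256%, and neither window shown held them. Of the members, 46 were in the promoter table with 51 windows. Of these windows 18 (35.3%) held TGACG, 22 (43.1%) CCAAT, 7 (13.7%) TTTGAA, 2 (3.92%) TGACGTCA and 1 (1.96%) TTTCGCGC. A match is a run of letters and not a site shown to be bound.

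D-type cyclins bring Cdk4 and Cdk6 to the retinoblastoma protein, and the 3 genes did not move together. Ccnd2, known in the testis from spermatogonia, had 78.5, 52.0, 72.5, 60.2 and 64.9 normalized counts in WT and 165, 139, 172, 174 and 215 in KI. Every KI library was higher than every WT library (log2 fold change 1.39, SE 0.15, adjusted p = 9.97e-06). Taken by set, the log2 fold change was 1.23 for libraries 1 to 3 and 1.62 for libraries 4 and 5. Ccnd2 lies at chr6:127125709-127151048 on the minus strand, with no overlapping exon of another counted gene, and its lowest library had 45 reads.

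Ccnd3, the D-type cyclin with the most RNA here, had 1694, 2088, 1993, 1749 and 2171 normalized counts in WT and 1369.8, 1446, 1469, 1466 and 1463 in KI. The genotypes did not overlap and the adjusted p was 0.00298, but the log2 fold change of −0.42 (SE 0.089) was under the fold threshold, so Ccnd3 was not called. Under library totals it stood at −0.19 (adjusted p = 0.0877). Ccnd1 had 221, 159.6, 239, 186 and 198 in WT and 220.3, 190.3, 168, 126 and 158 in KI, which overlapped (log2 fold change −0.23, SE 0.15, adjusted p = 0.330). Ccnd3 shares exon sequence on the other strand with Bysl, and Ccnd1 with LTO1.

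Within a library, Ccnd2 to Ccnd1 stood at 0.355, 0.326, 0.303, 0.324 and 0.329 in WT and at 0.751, 0.731, 1.02, 1.38 and 1.36 in KI. That log2 ratio was higher by 1.61 in KI (SE 0.20, exact permutation p = 0.00794, adjusted p = 0.0317). Ccnd2 to Ccnd3 stood between 0.0249 and 0.0463 in WT and between 0.0962 and 0.147 in KI, a difference of 1.81 on the log2 scale (SE 0.18, exact permutation p = 0.00794, adjusted p = 0.0317). Per kilobase of exon the mean levels in WT were 221 for Ccnd3, 42.6 for Ccnd1 and 6.97 for Ccnd2, and in KI they were 164, 36.6 and 18.4. Ccnd2 was the lowest of the 3 in both genotypes and the lowest of all 56 members in WT.

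**Figure D3:**
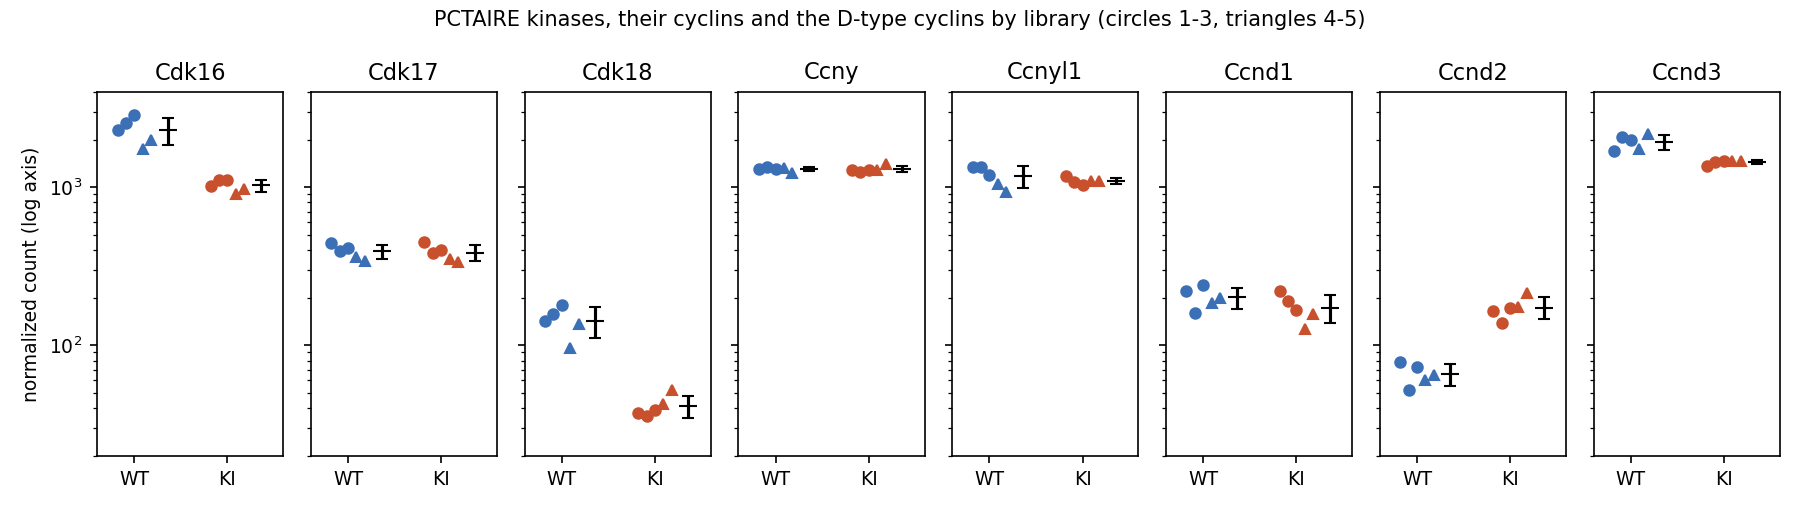
Normalized counts (log axis) of the PCTAIRE kinases, their activating cyclins and the D-type cyclins in each library, circles for libraries 1 to 3 and triangles for libraries 4 and 5, with mean and SD (n = 5 per genotype). Cdk16 and Cdk18 sit lower in KI and Cdk17, Ccny and Ccnyl1 do not, while Ccnd2 sits higher and Ccnd3 lower.

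The kinases that D-type cyclins activate were not called. Cdk4 had 341, 298, 376, 271 and 232 normalized counts in WT and 395, 349, 471, 218 and 277 in KI, which overlapped (log2 fold change 0.14, SE 0.19, adjusted p = 0.648). Cdk6 had 241, 236, 238, 256 and 255 in WT and 156, 189, 162, 229.8 and 309 in KI, and the KI libraries spread to both sides of the WT range (log2 fold change −0.28, SE 0.16, adjusted p = 0.25). For Cdk6 the value was −0.50 within libraries 1 to 3 and 0.061 within libraries 4 and 5. Without KI library 5 it was −0.43 (adjusted p = 0.0241), still under the fold threshold.

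E-type cyclins start DNA replication with Cdk2. Ccne1 had 96.2, 103, 96.6, 102 and 80.9 normalized counts in WT and 150.4, 127, 129.7, 115 and 137 in KI, with no overlap (log2 fold change 0.46, SE 0.13, adjusted p = 0.0154), under the fold threshold. Ccne2, the more abundant of the pair, had 559.6, 449.8, 517, 545 and 401 in WT and 726, 621, 523, 403 and 459 in KI, which overlapped (log2 fold change 0.12, SE 0.15, adjusted p = 0.616). Cdk2, which also has a role in meiotic recombination, had 1317, 1057, 1105, 1153 and 994 in WT and 1244, 1223, 1234, 1062 and 1079 in KI and was not called (log2 fold change 0.057, SE 0.10, adjusted p = 0.720).

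The A-type cyclins overlapped between genotypes. Ccna1, the germ-line cyclin A that male meiosis requires, had 2649, 3006, 2875, 2961 and 2694 normalized counts in WT and 2803, 2975, 2763, 3553 and 3258 in KI (log2 fold change 0.11, SE 0.091, adjusted p = 0.439). Ccna2, the cyclin A of dividing cells, had 215, 163, 248, 163 and 170.4 in WT and 168, 146, 200.8, 109 and 129 in KI (log2 fold change −0.36, SE 0.17, adjusted p = 0.153). Each KI library of Ccna2 was under the WT library of the same number, and the adjusted p was 0.0186 with the library number as a replicate block and 0.046 with a library set term. The change stayed under the fold threshold, and whether the library numbers pair the mice was not tested. Both share exon sequence on the other strand, Ccna1 with 4931419H13Rik and Ccna2 with Exosc9. Mean levels per kilobase of exon were 1546 in WT and 1673 in KI for Ccna1 and 47.0 and 36.9 for Ccna2.

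B-type cyclins form with Cdk1 the kinase of the meiotic and mitotic divisions. Ccnb1 had 1219, 1352, 1239, 1646 and 1367 normalized counts in WT and 936, 1083, 1043, 1175 and 1019 in KI, and no library overlapped (log2 fold change −0.37, SE 0.10, adjusted p = 0.0134), though the change was under the fold threshold and was −0.14 (adjusted p = 0.246) under library totals. Ccnb2 had 2638, 2830.3, 2568, 3040.1 and 2798 in WT and 2269.8, 2534, 2251, 2995 and 2471 in KI, with overlap (log2 fold change −0.15, SE 0.10, adjusted p = 0.277). The meiotic cyclin Ccnb3 had 101, 59.0, 104, 28.1 and 38.6 in WT and 109, 83.4, 97.8, 62.5 and 58.0 in KI, the widest spread of the B-type cyclins (log2 fold change 0.44, SE 0.32, adjusted p = 0.366). In WT, Ccnb3 was lower in libraries 4 and 5 than in libraries 1 to 3.

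Cdk1, the kinase of these cyclins, had 585, 553, 554, 495 and 397 normalized counts in WT and 536, 617, 571, 569 and 441 in KI, and it was not called (log2 fold change 0.085, SE 0.12, adjusted p = 0.673). The ratio Ccnb1 to Ccnb2 stood at 0.462, 0.478, 0.483, 0.541 and 0.488 in WT and at 0.412, 0.427, 0.463, 0.392 and 0.413 in KI. Its log2 ratio was −0.22 in KI against WT (SE 0.055, exact permutation p = 0.0159), which did not pass the adjustment over 20 pairs (adjusted p = 0.0529).

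Ccno, a cyclin known for the making of multiciliated cells, was the other called cyclin. It had 56.5, 65.9, 88.2, 88.3 and 69.6 normalized counts in WT and 87.6, 123, 101, 132 and 113 in KI, and the lowest KI library lay within the WT range (log2 fold change 0.59, SE 0.16, adjusted p = 0.0164). Over libraries 1 to 3 it was 0.57, and over libraries 4 and 5 it was 0.63 with an adjusted p of 0.122, so that neither set alone gave a call. Ccno lies at chr13:112987802-112990778 on the plus strand, overlaps no exon of another counted gene and had 54 reads in its lowest library. The log2 fold change went under the threshold of 0.585 without WT library 1 (0.50), WT library 2 (0.56), WT library 5 (0.58), KI library 2 (0.55), KI library 4 (0.53) or KI library 5 (0.58). Ccnf, the F-box cyclin that marks proteins for breakdown, had 477, 557, 524, 578 and 510.1 in WT and 648, 759.6, 713, 1011 and 879 in KI without overlap. It was called in 11 of 24 alternative fits, among them edgeR with TMM (0.59), edgeR with DESeq2's size factors (0.60) and DESeq2 (0.60, adjusted p = 4.59e-05). The log2 fold change was 0.44 within libraries 1 to 3 and 0.79 within libraries 4 and 5, where it was called. Over all libraries 0.58 (SE 0.12, adjusted p = 0.00204) passed the fold threshold without WT library 2 (0.60), WT library 4 (0.62), KI library 1 (0.66), KI library 2 (0.60) or KI library 3 (0.62).

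Cyclins and kinases of transcription and splicing made up much of the rest, and none was called. Ccnt1 and Ccnt2 are alternative partners of Cdk9, the kinase that releases paused RNA polymerase II. Ccnt2 was higher in every KI library (0.32, SE 0.10, adjusted p = 0.0263), with 194 to 216 normalized counts in WT and 239 to 265 in KI, while Ccnt1 gave −0.044 (adjusted p = 0.815). Ccnt1 to Ccnt2 stood at 2.25, 2.24, 2.19, 2.47 and 2.57 in WT and at 1.74, 1.73, 1.74, 1.83 and 2.09 in KI. The log2 ratio was −0.36 in KI against WT with no overlap (SE 0.068, exact permutation p = 0.00794, adjusted p = 0.0317). Cdk9 itself gave 0.20 (SE 0.14, adjusted p = 0.342). The adjusted p of Ccnt2 rose above 0.05, up to 0.0584, without WT library 2, 3 or 5 or without KI library 1 or 5, with log2 fold changes of 0.30 to 0.31.

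Ccnc, the cyclin of the Mediator kinases Cdk8 and Cdk19, had 232, 191, 187, 224 and 184 normalized counts in WT and 196, 137, 145, 157 and 132 in KI, with a small overlap (log2 fold change −0.41, SE 0.13, adjusted p = 0.0338). Its adjusted p rose above 0.05, up to 0.0891, without WT library 1 or 4 or without KI library 2, 3 or 5, with log2 fold changes of −0.40 to −0.36. The kinases gave −0.025 (Cdk8) and −0.30 (Cdk19, adjusted p = 0.0882). With the replicate block Cdk19 reached an adjusted p of 0.0195, and it stood at −0.43 within libraries 1 to 3 (adjusted p = 9.01e-04) and −0.094 within libraries 4 and 5. Ccnl1, a splicing cyclin of Cdk11b, had 604, 660.2, 519, 605 and 679.5 in WT and 498, 486, 490.1, 473 and 439 in KI without overlap (log2 fold change −0.36, SE 0.094, adjusted p = 0.0125). Under library totals Ccnc stood at −0.18 (adjusted p = 0.304) and Ccnl1 at −0.13 (adjusted p = 0.317). The relative of Ccnl1, Ccnl2 (−0.21), and the kinase Cdk11b (0.053) overlapped between genotypes. Ccnk had the highest level of all 56 members per kilobase of exon, 2653 in WT and 2369 in KI, and it and its kinases gave log2 fold changes of −0.18 (Ccnk), 0.10 (Cdk12) and 0.073 (Cdk13). Within libraries 1 to 3 Ccnk stood at −0.35 (adjusted p = 0.00181), and within libraries 4 and 5 at 0.076. The Cdk-activating pair of Ccnh and Cdk7, which also serves the general transcription factor TFIIH, gave −0.02 (Ccnh) and −0.14 (Cdk7).

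The remaining cyclins and CDKs were not called and did not reach an adjusted p under 0.05. Among the cyclins these were Ccng1 (0.30) and Ccng2 (0.19), which are tied to stress responses, the atypical cyclins Ccni (−0.088), Ccnj (−0.24) and Ccnjl (−0.19), the Cdk10 partner Ccnq (0.22), and Ccndbp1 (0.17), with log2 fold changes in parentheses. Among the kinases they were Cdk5 (0.18), known from neurons, Cdk10 (0.30) and Cdk20 (0.12). Cdk10 had the lowest adjusted p of these (0.0733), with 426 to 525 normalized counts in WT and 481 to 686 in KI, and it reached 0.023 with the replicate block. Within libraries 1 to 3 alone, 8 members that missed an adjusted p of 0.05 over all libraries reached it, namely Ccnk, Ccnyl1, Cdk6, Cdk19 and Cdkn2b, given with their values, and Ccng1 (0.43, and 0.10 within libraries 4 and 5), Cdk9 (0.39 and −0.10) and Cdkn2aip (−0.27 and −0.0054). The direction was the same in both sets for 41 of the 56 members, beside 10466 of the 15389 genes tested, and no test compared the sets. By family, 9 of 28 cyclins (32.1%), 2 of 18 CDKs (11.1%) and 0 of 10 inhibitors reached an adjusted p under 0.05, beside 22.9% of all genes. No test compared the families. Exons of another gene on the other strand, whose reads cannot be told apart without strand, also overlap those of Ccnc (Tstd3), Ccne2 (Ints8), Ccnh (Rasa1), Ccnt1 (9330020H09Rik), Ccnyl1 (2810408I11Rik), Cdk2 (Pmel), Cdk4 (Tspan31) and Cdk10 (Spata2l).

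**Figure D4:**
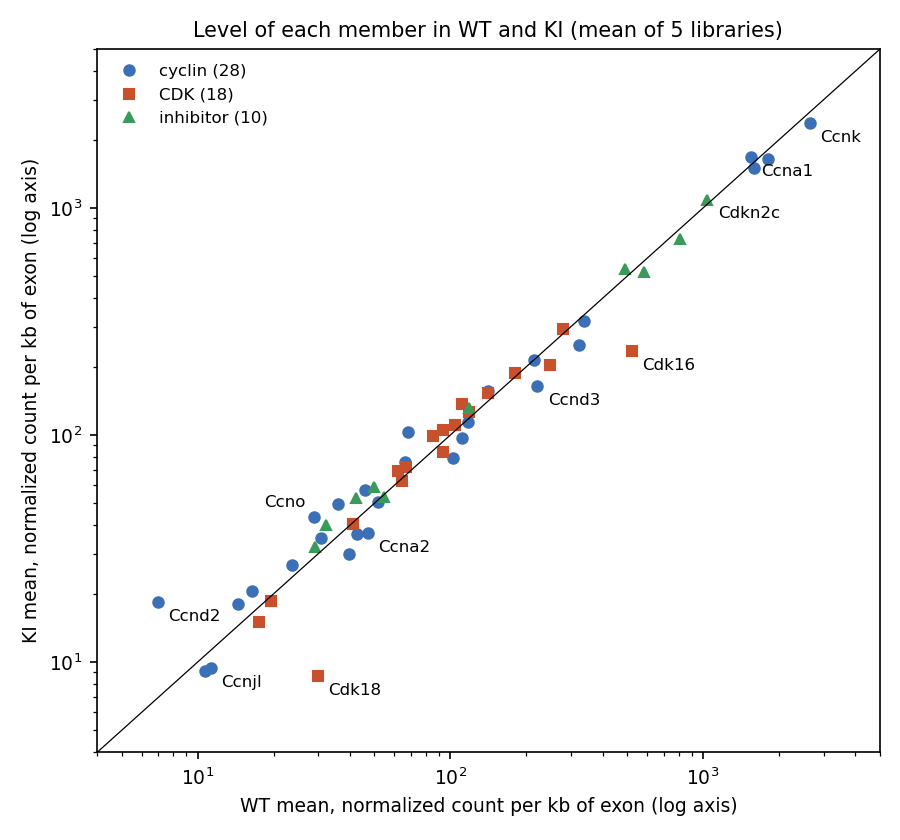
Mean normalized count per kilobase of exon in WT (x) and KI (y) on log axes, 1 point per member, with a line of equal level. Ccnk is highest at 2653 in WT and 2369 in KI, Ccnd2 is lowest in WT at 6.97, and Cdk16, Cdk18 and Ccnd2 lie farthest from the line.

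No CDK inhibitor was called, none reached an adjusted p under 0.05, and none reached an unadjusted p under 0.05 by limma. DESeq2 and edgeR on the recovered reads called none either, while Cdkn2b was called in 2 other fits, given beside its values. Of all 15389 genes tested, 14.4% were called by limma and 22.9% reached the adjusted p. At an unadjusted p under 0.05 by limma, 2493 of all genes were higher and 2829 lower. Per kilobase of exon, Cdkn2c, an inhibitor of Cdk4 and Cdk6 that acts in the male germ line, had the highest level (1040.1 in WT and 1089 in KI), followed in WT by Cdkn3 (811), a phosphatase that acts on CDKs, then Cdkn2aip (584) and Cdkn2d (490.3). The log2 fold change of Cdkn2aip was −0.16 (SE 0.087).

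Cdkn2c had 2668, 2754, 3040.1, 2792 and 2713 normalized counts in WT and 2538, 3101, 2973, 3105 and 2905 in KI (log2 fold change 0.064, SE 0.085). Cdkn2d, a relative that acts on the same kinases, had 775, 764, 739, 801 and 778 in WT and 805, 882, 863, 891 and 805 in KI. All KI libraries of Cdkn2d lay above all WT libraries, by a small step that the test did not call (log2 fold change 0.14, SE 0.078, adjusted p = 0.236). Cdkn3 had 1938, 2134, 1865, 1899 and 1779 in WT and 1682, 1853, 1950.0, 1826 and 1337 in KI, which overlapped (−0.16, SE 0.10).

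Inhibitors of the Cip/Kip kind, which bind many pairs of cyclin and CDK, had mean levels per kilobase of exon of 32.1 (Cdkn1a), 29.1 (Cdkn1b) and 49.97 (Cdkn1c) in WT. Cdkn1a had 94.1, 78.6, 189.6, 102 and 106 normalized counts in WT and 142, 159, 194, 101 and 116 in KI (log2 fold change 0.34, SE 0.22), and WT library 3 stood apart from the other WT libraries. Cdkn1b had 108, 101, 188, 128 and 137 in WT and 163, 149, 179, 122 and 121 in KI (0.17, SE 0.17). Cdkn1c had 128, 93.6, 119.6, 79.2 and 89.4 in WT and 109, 157, 146, 82.7 and 105 in KI (0.22, SE 0.19). The genotypes overlapped in all 3.

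The neighbours Cdkn2a and Cdkn2b, which code for inhibitors of Cdk4 and Cdk6, had mean levels per kilobase of exon of 54.8 and 42.2 in WT. Cdkn2a had 62.8, 46.2, 80.9, 69.2 and 62.1 normalized counts in WT and 61.9, 80.8, 66.9, 45.2 and 57.0 in KI (log2 fold change −0.044, SE 0.19). Cdkn2b had 60.7, 37.0, 50.7, 56.2 and 88.5 in WT and 69.0, 70.4, 82.4, 77.9 and 67.2 in KI (0.37, SE 0.20). Within libraries 1 to 3 Cdkn2b was called (log2 fold change 0.59, adjusted p = 0.0453), within libraries 4 and 5 it stood at 0.036, and under library totals it was called at 0.60 (adjusted p = 0.0388). Both overlapped between genotypes, and Cdkn2aipnl (0.14), given with its log2 fold change, did too.

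Of 20 ratios between related genes, 5 were called, namely those of Ccnd2 to Ccnd1, Ccnd2 to Ccnd3, Ccnt1 to Ccnt2, Cdk16 to Cdk17 and Cdk16 to Cdk18. The other 15 differed by −0.42 to 0.81 on the log2 scale with adjusted p of 0.0529 to 0.889. Among them, Ccna1 to Ccna2 was higher by 0.47 (SE 0.26), Cdk4 to Cdk6 by 0.42 (SE 0.38), and Cdkn2c to Cdkn2d differed by −0.074 (SE 0.058). Pairs that share a gene are not independent. Without any single WT library (1, 2, 3, 4 or 5) no ratio passed the adjustment, and the 5 ratios then had an adjusted p of 0.0529 or 0.0635. Without any single KI library 5 or 6 ratios passed, and the cause of this difference was not tested. With so few libraries the permutation p comes in coarse steps, and the adjusted p of a ratio also depends on the p of the other pairs.

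**Figure D5:**
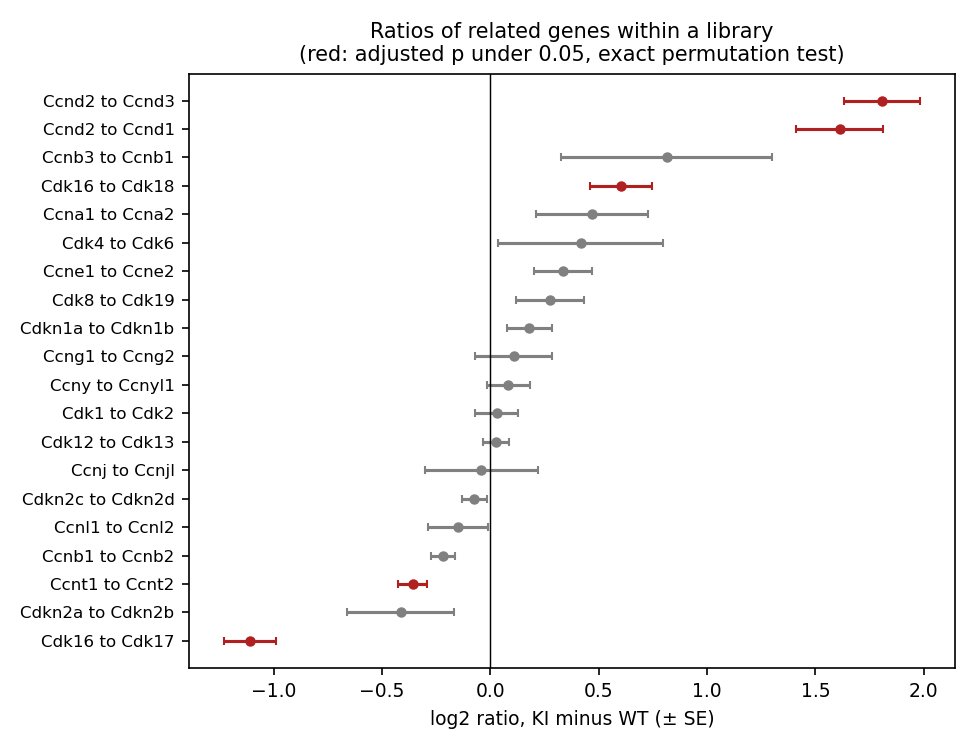
Difference of the log2 ratio of related genes, KI minus WT (points, with SE as bars, 5 libraries per genotype), for 20 pairs. The 5 called ratios (red) run from −1.11 for Cdk16 to Cdk17 up to 1.81 for Ccnd2 to Ccnd3.

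Genes that act with the members were followed in 8 lists of pathway genes. Of 108 tested, 6 were called, all lower in KI (5.56%, beside 8.22% of all genes called lower). Skp2, the F-box protein that brings Cdkn1b to breakdown, fell from 1889.9 ± 552 to 636 ± 119 normalized counts (mean ± SD, n = 5; log2 fold change −1.54, SE 0.19, adjusted p = 3.21e-05). The phosphatase Cdc14a fell from 2874 ± 740.2 to 1139.7 ± 88.9 (log2 fold change −1.30, SE 0.15, adjusted p = 2.16e-05), and its relative Cdc14b changed by −0.70. The CDK-like kinases Cdkl2 and Cdkl3, relatives of CDKs without a known cyclin, both changed by −0.64, and the elongation factor Ell3 by −0.73 (adjusted p = 0.0388).

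Over all 15389 genes tested, 14.4% were called, and 2493 genes were higher and 2829 lower at an unadjusted p under 0.05 by limma. Among the parts of the anaphase-promoting complex, which breaks down B-type cyclins, 0 of 17 were called, and 2 were higher and 3 lower at an unadjusted p under 0.05 by limma. Of the retinoblastoma and E2F genes 0 of 20 were called, with 0 higher and 3 lower at an unadjusted p under 0.05, and Rb1 and E2f1 gave log2 fold changes of 0.018 and 0.012. None of the 9 genes tested from the list of non-cyclin CDK activators and adaptors was called (2 higher and 0 lower at an unadjusted p under 0.05). The activators Cdk5r2 and Speedya of that list were not tested. Of the 18 mitotic kinases and checkpoint genes none was called (3 higher and 0 lower at an unadjusted p under 0.05). In these 4 lists edgeR and DESeq2 called 0 genes as well. Of the kinases and phosphatases that act on CDKs, Wee1, Pkmyt1 and Cdc25a overlapped between genotypes, and Cdc25c, the phosphatase that switches on Cdk1, stood at 278 ± 32.6 in WT and 192 ± 21.4 in KI without overlap (log2 fold change −0.53, adjusted p = 0.00397), under the fold threshold.

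Markers of some of the cell types that a testis preparation can hold moved with genotype. All 9 markers of elongating spermatids were called lower, with a median log2 fold change of −2.50, and their summed normalized counts ran from 228498 to 411824 in WT and from 29597 to 63334 in KI. Of 8 round spermatid markers 0 were called (0 higher and 4 lower at an adjusted p under 0.05, and the same numbers unadjusted, by limma, median −0.45, sums of 22321 to 24519 in WT and 13515 to 20058 in KI). Of 12 spermatocyte markers 0 were called (0 higher and 1 lower at an adjusted p under 0.05, 1 higher and 3 lower unadjusted, median −0.17, sums of 73587 to 92072 and 61170.0 to 72581). Ldhc, with mean normalized counts of 55218 in WT and 45116 in KI, made up most of the spermatocyte sums. Of 11 spermatogonial markers 1 was called, Lin28a, which rose by 0.65 (median 0.024, sums of 2244 to 3064 and 2601 to 3057). At an adjusted p under 0.05 by limma, 1 spermatogonial marker was higher and 1 lower, the latter Gfra1 (−0.48, adjusted p = 0.0202). Unadjusted, 2 were higher and 1 lower. These are the values beside which the lower Cdk16, Cdk18, Skp2 and Cdc14a and the higher Ccnd2 and Ccno stand, and their part in those results was not tested. The 4 round spermatid markers, Spaca1, Catsper3, Tssk1 and Tex21, did not overlap between genotypes and stood at −0.58 to −0.41. In the round spermatid and spermatocyte lists, edgeR and DESeq2 also called 0 markers.

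Reads of somatic markers were found too, and none of the markers counted had 0 reads in any library. Each library held a read for at least 15487 of the 15507 counted genes, so this alone does not show which cells were present. Cnn1 and Emcn of the somatic lists were not tested. Called higher were 3 of 7 Leydig cell markers (median 0.69, sums of 10291 to 18066 in WT and 14779 to 25692 in KI), 6 of 9 macrophage markers (median 0.65, sums of 836 to 1019 and 1187 to 1572) and 2 of 5 endothelial markers (median 0.46, sums of 265 to 365 and 424 to 805). Of 8 Sertoli cell markers 0 were called (1 higher and 0 lower unadjusted, median 0.12, sums of 6279 to 10341 and 6300 to 10956), and edgeR and DESeq2 called 0 as well. Of 6 markers of peritubular myoid and smooth muscle cells, Acta2 and Des rose and Actg2 fell (median 0.11, sums of 2898 to 4473 and 1355 to 1917). Actg2, with mean normalized counts of 3325 in WT and 1279 in KI, made up most of these sums, so their fall is mainly that of 1 gene. Ccnd2 and the Cip/Kip inhibitors are also expressed in somatic cells, and the part of these cells in their values was not tested.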

How the data were processed

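Germ cell RNA of 5 WT and 5 KI mice was sequenced as 1 library each. Per the methods, paired reads were aligned with STAR to mm10 and assigned to RefSeq genes by the Partek E/M model. The authors deposited these counts divided by DESeq2 size factors, a signal called normalized count here. Each value was a whole multiple of 1 read (100% of values under 5000 reads, tolerance 0.1 read), which returned the reads. Strand use is not given in the sources used here. The table's Stop was reduced by 1, after which 25 of 56 members matched RefSeq's ends.

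Libraries were grouped by label. Limma (3.58.1, R 4.3.3) with a variance trend was fitted to log2(value + 1) of genes passing filterByExpr. Alternatives were edgeR (4.0.16) and DESeq2 (1.42.0) on recovered reads, other pseudocounts, filters, scalings and thresholds, a replicate block, a library set term, each set alone, and each library left out. Ratios were compared by exact permutation. Scripts were tested on simulated data. Same-numbered libraries correlated after removal of genotype means (r = 0.306, 0.105, 0.280, 0.216 and 0.462). Libraries with other numbers from the same library set had a mean r of 0.134, with 0.105 under it and the rest above it. The numbers come from the labels, and whether they pair the mice was not tested. Replicates differed beyond sampling noise (chi-square per degree of freedom 2.66 to 46.7). Levels per kilobase used all exons of a gene in GENCODE vM21, while reads were assigned to RefSeq genes. Rankings of genes by these levels are therefore approximate.

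The members, lists and pairs were chosen with earlier results of these data known. Per-library values are given for called members and for the A, B, D and E cyclins, Cdk1, Cdk2, Cdk4, Cdk6 and the inhibitors of the Cdkn1 and Cdkn2 families and Cdkn3. Those of Cdk17, Ccny, Ccnf, Ccnc and Ccnl1 were added after their values were seen. Pathway genes are at most 3 called genes per list by size, and Cdc25c, Wee1, Pkmyt1, Cdc25a, Rb1 and E2f1 were added likewise.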

Additional observations from a re-analysis of the deposited data

Results flagged for a closer look

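Among 52 groups of 5 libraries, from 26 genes given by library, 2 held a library far from the others by Dixon's test, and chance gives about 1 in 20. Ccnd3 had 1370 normalized counts in KI library 1 and 1446 to 1469 in the other KI libraries. Cdkn1a had 189.6 in WT library 3 and 78.6 to 106 in the other WT libraries.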

How the results depend on the processing

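Of the 4 called members, Ccnd2 and Cdk16 were called in 24 of 24 alternative fits, Cdk18 in 23 of 23 and Ccno in 14 of 23. Ccnf, not called, was called in 11 of 24, with edgeR and DESeq2 among them, Cdkn2b in 2 and Ccne1 in 1. The number of members called was 2 of 48 with a mean of at least 100 reads, which left out Cdk18 and Ccno, 7 (5 higher, 2 lower) with library totals, 11 at an adjusted p under 0.05 with any fold, and 3 to 5 with each library left out. Library totals moved the median log2 fold change of all genes from 0.026 to 0.25 and the upper quartile to 0.12, and the share of calls that were higher from 42.7% to 73.1% and 55.8%. That share was 26.3% with a mean of at least 100 reads and 30.1% in libraries 4 and 5 alone. Ccny, not called, went from −0.0018 to 0.23 (adjusted p = 0.025) under library totals, and its shift is that of the scaling. For other uncalled members a change of sign was not counted as a reversal, since no direction is reported. The replicate block gave 4 members called and changed no member's call, and Ccna2 (0.0186), Cdk10 (0.023) and Cdk19 (0.0195) then also reached an adjusted p under 0.05, as with the library set term. At any fold, library totals put 21 members past the adjusted p, with 14 gained and 4 lost (Ccnb1, Ccnc, Ccnd3 and Ccnl1). Ddx25 was called in all 24 fits. The number of ratios called was 0 to 6 with each library left out, 0 without any 1 WT library (the cause was not tested), and 4 with a pseudocount of 10. Without 1 library, Ccng1, Cdk10, Cdk19, Cdk6 and Cdkn2b reached an adjusted p under 0.05 but not the fold. Over single members and ratios, 1487 values kept their side of the adjusted p threshold, 36 gained it, 52 lost it and 1 reversed. Genes with few reads, such as Ccnjl (19 in its lowest library), are limited by counting error, and a floor of 3 reads applies where a gene has none.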
